A study of Mus musculus with 11 samples.

Results

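The 6 genes described here mark or specify horizontal cells, the inhibitory interneurons of the outer retina: Lhx1, Onecut1, Onecut2, Onecut3, Calb1 and Prox1. They were taken by symbol from a table of 37991 genes, and all 6 were found there and passed the filter on low counts. The table holds reads from 11 mouse retinas at postnatal day 24, 1 library per animal. The 3 rd10 GSK and 3 rd10 saline retinas came from mice labelled B6.CXB1-Pde6brd10/Jrd10 with C57Bl/6J as background, and the 3 wild-type GSK and 2 wild-type saline retinas from C57Bl/6J mice. The rd10 allele lies in Pde6b, which encodes a subunit of the rod phosphodiesterase, and rods die in this strain. GSK is GSK2879552, an inhibitor of the histone demethylase LSD1, injected intraperitoneally each day at 4.2 mg/kg from day 9 to day 24, while the saline groups had daily saline over the same days. The whole right retina was sequenced, so every value is a share of the RNA of all retinal cells, and fewer cells of a type cannot be told apart from less RNA per cell.

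Horizontal cells receive glutamate from rods and cones, feed inhibition back to them, and are coupled to each other through gap junctions. In the mouse, Onecut1 and Prox1 act in the genesis of horizontal cells, and Lhx1 places them in their layer. Calb1 encodes calbindin, a calcium buffer that labels horizontal cells. Of the 6, Lhx1 is the most restricted to horizontal cells among retinal neurons. Calbindin is also found in amacrine and ganglion cells, Prox1 in AII amacrine cells, bipolar cells and Müller glia and in lens fibres, and Onecut factors in ganglion cells.

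RefSeq's table of promoters (GRCm38.p6) held windows for Lhx1, Onecut1 and Prox1. The 250 bases before the start site are shown for Lhx1, the gene with the largest fall between the rd10 groups, and for Prox1, which fell with it. Lhx1 lies on the minus strand at chr11:84525535-84525784 and the upstream window of Prox1 on the minus strand at chr1:190170828-190171077. Capitals mark a CCAAT box, a general promoter element.
Lhx1: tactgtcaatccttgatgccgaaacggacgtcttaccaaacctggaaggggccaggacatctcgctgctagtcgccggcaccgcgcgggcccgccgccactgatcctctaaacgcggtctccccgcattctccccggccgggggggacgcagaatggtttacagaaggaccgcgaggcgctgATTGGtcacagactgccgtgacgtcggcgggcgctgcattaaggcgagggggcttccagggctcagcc
Prox1: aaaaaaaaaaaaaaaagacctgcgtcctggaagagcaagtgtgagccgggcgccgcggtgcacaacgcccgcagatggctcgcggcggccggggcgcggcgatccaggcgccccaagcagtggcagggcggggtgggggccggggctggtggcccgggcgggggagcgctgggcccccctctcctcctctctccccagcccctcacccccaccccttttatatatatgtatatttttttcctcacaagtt
Each window had a GC content of 64.8%, against a median of 52.4% over the 32851 promoter windows of this table. The windows were searched on both strands for CCAAT, for the Onecut motifs ATCGAT and ATTGAT, and for TAATTA, which LIM homeodomain proteins bind. ATCGAT and TAATTA read the same on both strands, and the motifs can share bases at their ends. In the order given, the 4 motifs occurred in 33.9%, 0.728%, 6.72% and 4.84% of all windows. Lhx1 had 1 match, a CCAAT on the opposite strand that starts 68 bases before the start site (-68), and the windows of Onecut1 and Prox1 had 0. A match is a description of the sequence.

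Libraries held between 19657030 and 28053367 counts. Levels are given as CPM, each count divided by its library's total after edgeR's TMM scaling, which evens out differences in composition between libraries. Pde6b, the mutated gene, had 1376 ± 383 CPM in rd10 GSK, 362 ± 51.9 in rd10 saline, 2243 ± 35.4 in wild-type GSK and 2266 ± 49.8 in wild-type saline (SD). Kdm1a, which encodes LSD1, had 97.4 ± 5.69 CPM in rd10 GSK, 86.2 ± 2.83 in rd10 saline, 100.5 ± 4.01 in wild-type GSK and 95.5 ± 0.583 in wild-type saline, and since the drug inhibits the protein this level does not check the treatment. A list of 12 lens genes summed to 7250 CPM in rd10 GSK replicate 2 and 708 CPM in wild-type saline replicate 2, and to at most 16.9 CPM in each other library. The first 2 are called lens-bearing below. Xist was above 10 CPM in 1 of 3 rd10 GSK, 2 of 3 rd10 saline, 2 of 3 wild-type GSK and 2 of 2 wild-type saline libraries.

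**Figure D1:**
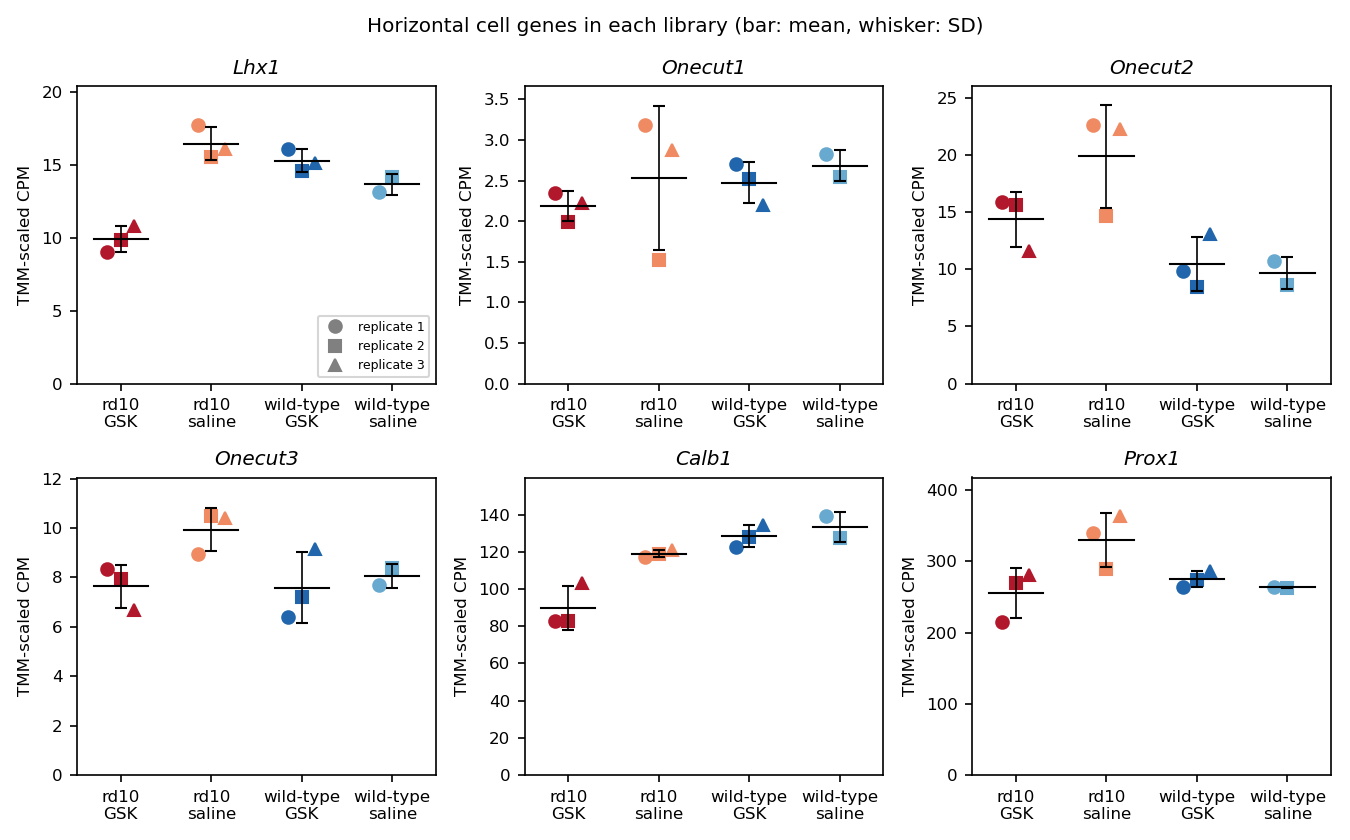
Expression of the 6 horizontal cell genes in each library, in CPM on linear axes from 0, with 1 point per animal (shape gives the replicate number), the group mean as a bar and the SD as whiskers. Lhx1 in the 3 rd10 GSK retinas sits between 9.06 and 10.8 CPM, below the other 8 libraries, and Onecut2 is highest in rd10 saline.

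The levels of the 6 genes spanned a wide range in wild-type saline retinas. Divided by the length of the gene's exons in GENCODE M21, Prox1 stood at 31.4 ± 0.0930 CPM per kb, Calb1 at 27.5 ± 1.67, Lhx1 at 3.36 ± 0.178, Onecut3 at 1.68 ± 0.101, Onecut1 at 0.653 ± 0.0475 and Onecut2 at 0.595 ± 0.0880 (SD, n = 2). Onecut1 and Onecut2 did not differ beyond their spread there, while each other neighbour in this order did. In rd10 saline the order of those 2 genes was the other way, with Onecut2 at 1.22 ± 0.277 and Onecut1 at 0.615 ± 0.215 CPM per kb (SD, n = 3). The sources used here do not name the annotation behind the counts, so these lengths may differ from the counted ones. Onecut1 was the thinnest, with between 33 and 73 counts per library, and Prox1 the deepest, with between 5522 and 8950.

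Lhx1 was lower in rd10 retinas given GSK than in any other group. It stood at 9.06, 9.87 and 10.8 CPM in rd10 GSK replicates 1, 2 and 3, against 17.8, 15.6 and 16.1 CPM in rd10 saline. It had 16.1, 14.6 and 15.2 CPM in wild-type GSK, against 13.2 and 14.2 CPM in wild-type saline. The 3 rd10 GSK libraries lay below all the others, and the rd10 saline libraries lay above wild-type saline without overlap. Between rd10 GSK and rd10 saline Lhx1 fell (log2 fold change -0.73 ± 0.09 SE, edgeR adjusted p = 0.000161), which is 0.601 times the rd10 saline level. This call held in all 20 alternative analyses. Its size depended on the scaling: set to bipolar, amacrine and ganglion cell genes, here called inner retina scaling, the change was -0.44 ± 0.09 (edgeR adjusted p = 0.00174), with the median of all genes moved to 0.305. Without both lens-bearing libraries it was -0.72 ± 0.11 (edgeR adjusted p = 0.00309). Lhx1 also fell below wild-type GSK (-0.63 ± 0.09, edgeR adjusted p = 0.00110) and below wild-type saline (-0.46 ± 0.10, edgeR adjusted p = 0.00825). The last call was lost under inner retina scaling (-0.21, edgeR adjusted p = 0.122) and in a fit of those groups alone (-0.46, edgeR adjusted p = 0.0573). It was also lost without the lens-bearing libraries (-0.41) and without wild-type saline replicate 2 (-0.41). These last 2 fits leave a lone wild-type saline library. They and the fit of those groups alone called fewer of all genes than the main fit.

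GSK had no called effect on Lhx1 in wild-type retinas (0.16 ± 0.10, edgeR adjusted p = 0.762), and the difference between its effects in the 2 genotypes was itself called (-0.89 ± 0.14, edgeR adjusted p = 0.00208). That interaction was called in all 19 alternatives that could be fitted. Between the saline groups Lhx1 was 0.27 ± 0.10 higher in rd10 on the log2 scale, just short of the threshold (edgeR adjusted p = 0.0545), and the adjusted p ran from 0.0400 to 0.274 over the alternatives. All 3 of these comparisons share libraries: the same rd10 saline retinas were set against wild-type saline and served as the baseline for rd10 GSK.

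Calb1 fell with GSK in rd10 as well. Its levels were 82.9, 82.8 and 103 CPM in rd10 GSK, against 117, 119 and 121 CPM in rd10 saline. Wild-type GSK retinas had 123, 128 and 135 CPM, against 139 and 128 CPM in wild-type saline. The 3 rd10 GSK libraries again lay below all the other 8. Between the rd10 groups Calb1 fell (-0.41 ± 0.08, edgeR adjusted p = 0.00256), a call lost under inner retina scaling (-0.12, adjusted p = 0.216). Against wild-type GSK (-0.52 ± 0.08, edgeR adjusted p = 0.00148) and wild-type saline (-0.57 ± 0.09, edgeR adjusted p = 0.00148) it fell too, and both calls held in all 20 alternatives. Between rd10 saline and wild-type saline the change was -0.16 ± 0.09 (edgeR adjusted p = 0.169). The interaction was not called (-0.35 ± 0.12, edgeR adjusted p = 0.0775), so the effect of GSK on Calb1 was not shown to differ between genotypes.

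Prox1 was higher in rd10 saline and near the wild-type level in rd10 GSK. It had 215, 269 and 281 CPM in rd10 GSK, against 339, 289 and 363 CPM in rd10 saline. Wild-type GSK had 264, 274 and 287 CPM, against 264 and 263 CPM in wild-type saline. The libraries of rd10 GSK and rd10 saline did not overlap. Prox1 fell with GSK in rd10 (-0.37 ± 0.10, edgeR adjusted p = 0.0159), but the call was lost under inner retina scaling (-0.0865, adjusted p = 0.466), without rd10 saline replicate 1 (-0.34, adjusted p = 0.0565) or replicate 3 (-0.29, adjusted p = 0.0681), and with only the compared groups fitted (-0.37, adjusted p = 0.0768). It rose in rd10 saline against wild-type saline (0.33 ± 0.12, edgeR adjusted p = 0.0408), a call kept in 9 of 20 alternatives. The call was lost without rd10 saline replicate 1 or 3 (edgeR adjusted p = 0.103 and 0.133) and without wild-type saline replicate 1 or 2. All of these fits called fewer of all genes, and those without a wild-type saline replicate leave a lone library of that group. Between rd10 GSK and wild-type saline the change was -0.05 ± 0.11 (edgeR adjusted p = 0.802). Lens fibres make Prox1. The library with the largest lens sum, rd10 GSK replicate 2, had 269 CPM of Prox1, between the other rd10 GSK libraries, and the part of lens RNA in the Prox1 values was not tested. Müller glia share Prox1, and 8 of 9 genes of the Müller glia list fell between the rd10 groups, where 15.2% of all genes fell. The list summed to 4073 to 6009 CPM in rd10 GSK, against 8032 to 9093 CPM in rd10 saline (5900 to 6044 CPM in wild-type saline). The part of Müller glia in the Prox1 values was not tested. An antisense gene, Prox1os, overlaps Prox1 and averaged 6.33 CPM, and the sources used here do not say whether reads were counted by strand.

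The Onecut genes encode a family of homeodomain factors with a single cut domain, and they differed among themselves. Onecut2 showed the largest genotype difference of the 6 genes. It had 15.9, 15.6 and 11.6 CPM in rd10 GSK, against 22.6, 14.7 and 22.3 CPM in rd10 saline. Wild-type GSK had 9.82, 8.41 and 13.1 CPM, against 10.7 and 8.65 CPM in wild-type saline. Every rd10 saline library lay above every wild-type library, and rd10 GSK overlapped both rd10 saline and wild-type GSK. Onecut2 rose in rd10 saline against wild-type saline (1.04 ± 0.24, edgeR adjusted p = 0.00647), a 2.06-fold difference. The call did not hold without wild-type saline replicate 2 (0.89) or without the lens-bearing libraries (0.88), and held in the other 18 alternatives. Both fits without the call leave a lone wild-type saline library and called fewer of all genes. Between the rd10 groups it had -0.47 ± 0.21, which did not pass (edgeR adjusted p = 0.110), except without rd10 saline replicate 2 (-0.63, adjusted p = 0.0292). Against wild-type saline the rd10 GSK level was 0.57 ± 0.24 higher (edgeR adjusted p = 0.110), so it was shown neither to differ from rd10 saline nor from wild type. That value was 0.84 with adjusted p = 0.0265 under inner retina scaling and 0.85 with adjusted p = 0.0188 with a term for Xist.

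Onecut3 had 8.32, 7.94 and 6.66 CPM in rd10 GSK, against 8.95, 10.5 and 10.4 CPM in rd10 saline. Wild-type GSK had 6.39, 7.21 and 9.17 CPM, against 7.71 and 8.39 CPM in wild-type saline. The rd10 saline libraries lay above those of rd10 GSK and of wild-type saline without overlap, but neither difference passed: -0.38 ± 0.14 between the rd10 groups (edgeR adjusted p = 0.0589) and 0.30 ± 0.16 between the saline groups (edgeR adjusted p = 0.152). Onecut1 had 2.35, 1.98 and 2.22 CPM in rd10 GSK, against 3.19, 1.52 and 2.88 CPM in rd10 saline. Wild-type GSK had 2.71, 2.52 and 2.20 CPM, against 2.82 and 2.55 CPM in wild-type saline. Its groups overlapped in each comparison but rd10 GSK against wild-type saline, and it passed in none, with SEs between 0.24 and 0.36 that leave changes of that size undetectable at this depth.

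In rd10 saline, replicate 2 had the lowest Lhx1, Onecut1, Onecut2 and Prox1 of its group and the highest Onecut3. For Onecut1, Onecut2 and Prox1 it lay farthest from the other libraries of the group, while for Lhx1 and Onecut3 replicate 1 did. In that library genes with at least 8000 exonic bases stood lower, relative to the group mean, than genes with at most 2000 bases, by -0.23 on the log2 scale. The same difference was 0.09 and 0.14 in rd10 saline replicates 1 and 3, and between -0.05 and 0.03 in the other 8 libraries. Onecut2 has 16234 exonic bases, Prox1 8390, Onecut3 4776, Onecut1 4113 and Lhx1 4072. Without replicate 2 of rd10 saline, Onecut2 was 1.21 ± 0.21 above wild-type saline (edgeR adjusted p = 0.00205) and Prox1 0.40 ± 0.11 above it (edgeR adjusted p = 0.0125). The part of transcript length, or of the other differences of that replicate, in these values was not tested.

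**Figure D2:**
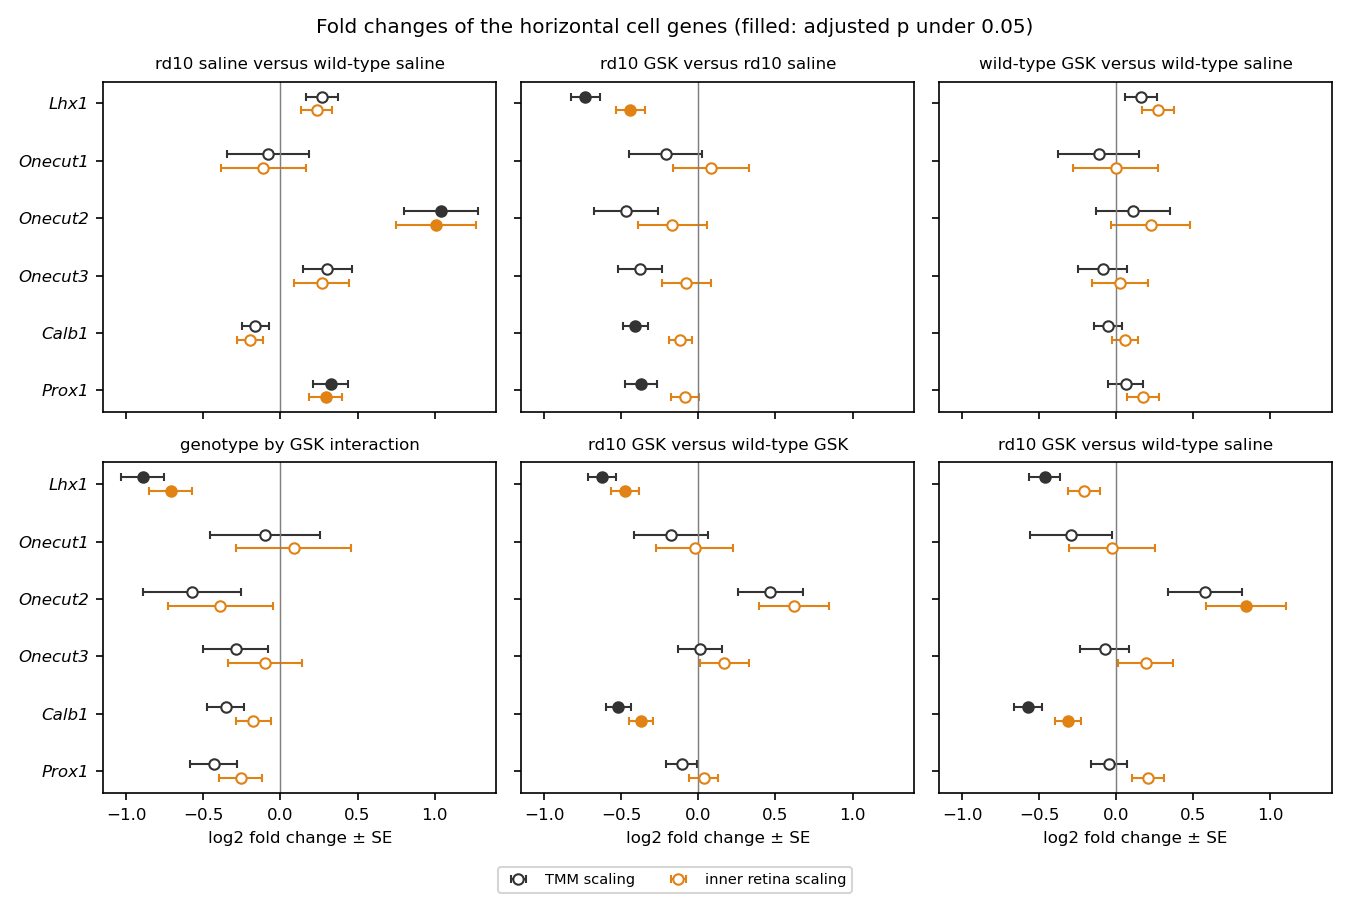
Log2 fold changes of the 6 genes in each of the 6 comparisons, with their SE, under TMM scaling (dark) and inner retina scaling (orange), filled where the adjusted p was under 0.05. Lhx1 between rd10 GSK and rd10 saline is filled under both scalings, at -0.73 and -0.44, while Calb1 and Prox1 there are filled under TMM scaling alone.

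Counted together, 3 of the 6 genes fell and 0 rose between rd10 GSK and rd10 saline, where 32.9% of all 17099 tested genes were called, 15.2% lower and 17.6% higher. The libraries of the groups did not overlap for 4 of the 6, against 42.7% of all genes. At an unadjusted p under 0.05, 5 were lower and 0 higher, and both DESeq2 and limma-voom called 3 lower and 0 higher. The median log2 change of the 6 was -0.39, against 0.01 for all genes. Between rd10 saline and wild-type saline 2 rose and 0 fell, where 40.5% of all genes were called, 21.5% higher and 19.0% lower. Libraries did not overlap for 5 of the 6, against 62.2% of all genes. The unadjusted counts were 3 higher and 0 lower, DESeq2 called 2 and 0 and limma-voom 1 and 0. The edgeR count was 4 without rd10 GSK replicate 3, with 7362 of all genes called against 6919 in the main fit. It was 1 without rd10 GSK replicate 2, rd10 saline replicate 1 or 3, or any wild-type GSK replicate, with between 6029 and 6706 of all genes called. Fewer of the 6, and fewer of all genes, were called in the fits that leave a lone wild-type saline library. The median was 0.29, against 0.02 for all genes. A count of 2 of 6 is close to that background. Between wild-type GSK and wild-type saline edgeR called 0 of the 6, DESeq2 and limma-voom called 0, and 0 had an unadjusted p under 0.05, where 0.532% of all genes were called, 0.444% higher and 0.0877% lower. Libraries did not overlap for 1 of the 6, Lhx1, against 34.4% of all genes. In the interaction 1 fell and 0 rose, with 12.5% of all genes called, 4.98% lower and 7.49% higher. The count was 3 without rd10 GSK replicate 3 (2235 of all genes called) and 2 without rd10 saline replicate 2 (2515 called). The main fit called 2131 of all genes. The unadjusted counts there were 3 lower and 0 higher, and DESeq2 called 3 lower, with Calb1 and Prox1 beside Lhx1, while limma-voom called 1. Against wild-type GSK 2 of the 6 fell in rd10 GSK, with 26.2% of all genes called, 10.9% lower and 15.4% higher. Against wild-type saline 2 fell, with 24.4% called, 10.3% lower and 14.1% higher. Both times they were Lhx1 and Calb1. Libraries did not overlap for 2 of the 6 against wild-type GSK (44.2% of all genes) and for 4 of the 6 against wild-type saline (53.5% of all genes).

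Genes of the other inner retinal neurons fell between rd10 GSK and rd10 saline too: 10 of 12 bipolar genes fell and 1 rose (median -0.39), 4 of 10 amacrine genes fell and 1 rose (-0.19), and 6 of 9 tested ganglion cell genes fell (-0.26). Of all genes 15.2% fell and 17.6% rose there. The summed level of 12 bipolar genes was between 82.9% and 89.0% of the wild-type saline mean in rd10 GSK, between 113% and 116% in rd10 saline and between 104% and 105% in wild-type GSK. The sum of 10 amacrine genes was between 84.8% and 93.3% in rd10 GSK and between 104% and 106% in rd10 saline. In wild-type GSK it was between 95.7% and 97.4%. The sum of 10 ganglion cell genes was between 72.5% and 81.0% in rd10 GSK and between 92.1% and 97.5% in rd10 saline. In wild-type GSK it was between 85.8% and 87.8%, below both wild-type saline libraries. Lhx1 ranged from 66.2% to 79.0% in rd10 GSK and from 114% to 130% in rd10 saline. The rod gene Pde6b moved the other way, with 1376 ± 383 CPM in rd10 GSK and 362 ± 51.9 in rd10 saline. Rod RNA takes part in the total by which each level is scaled, and its part in the falls was not tested. As a ratio to the summed bipolar, amacrine and ganglion genes of the same library, in CPM per 1000 CPM of that sum, Lhx1 lay between 2.06 and 2.25 in rd10 GSK and between 2.69 and 3.11 in rd10 saline, without overlap. Prox1 overlapped on this ratio, with 48.9 to 58.6 in rd10 GSK and 49.95 to 63.4 in rd10 saline, and so did Calb1, with 18.0 to 21.5 in rd10 GSK and 20.5 to 21.1 in rd10 saline.

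**Figure D3:**
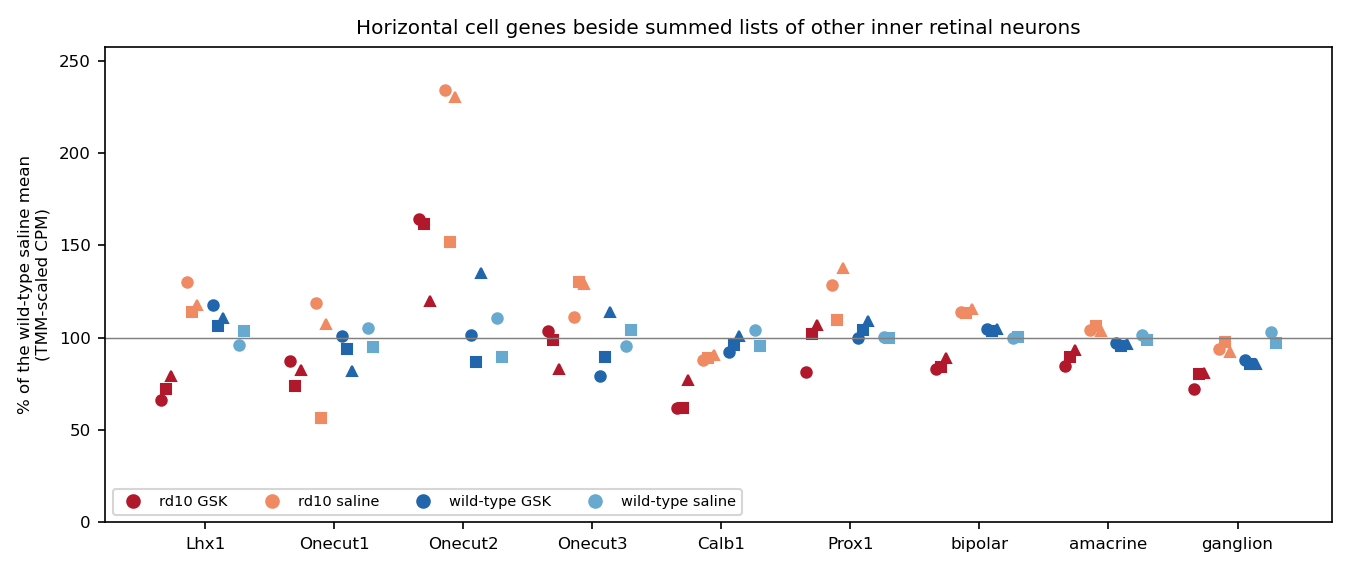
Level of the 6 horizontal cell genes and of the summed bipolar, amacrine and ganglion cell lists in each library, relative to wild-type saline, whose mean CPM is set to 100%; point shape gives the replicate (circle 1, square 2, triangle 3). In rd10 GSK Lhx1 reaches at most 79.0% and Calb1 at most 77.4%, and in rd10 saline Onecut2 lies between 152% and 234%.

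Other genes known from horizontal cells were read from a list of 22, of which Foxn4 and Ptf1a, the factors that open the horizontal and amacrine fate in progenitors, were too low to test. Of the 20 tested, 13 fell and 1 rose between rd10 GSK and rd10 saline, where 15.2% of all genes fell and 17.6% rose. Their median was -0.33, against 0.01 for all genes. Under inner retina scaling 2 were called lower and 5 higher, with the median of the list at -0.0371 and that of all genes at 0.305. That fit called 8569 of all genes, against 5621 in the main fit. Among fate factors Tfap2b, which with Tfap2a acts in horizontal and amacrine differentiation, fell (-0.37 ± 0.07, edgeR adjusted p = 0.00202), and stood at 260 ± 26.6 CPM in rd10 GSK and 337 ± 16.2 in rd10 saline. Tfap2a fell by less (-0.22 ± 0.06, edgeR adjusted p = 0.0211), and under inner retina scaling its value was 0.0782. Sall3, a factor of horizontal cell maturation, had -0.30 ± 0.13 (edgeR adjusted p = 0.0926), and Rorb, which acts upstream of Ptf1a and is also made in rods, had 0.37 ± 0.15 (edgeR adjusted p = 0.0923).

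Of 7 genes of transmission and coupling 4 fell and 0 rose between the rd10 groups, where 15.2% of all genes fell and 17.6% rose. At an unadjusted p under 0.05, 5 were lower and 0 higher, and DESeq2 called 4 lower and 0 higher. Gja10 encodes connexin 57, the gap junction protein of horizontal cells. It had 3.78, 2.40 and 3.93 CPM in rd10 GSK, against 5.06, 4.89 and 5.48 CPM in rd10 saline. Wild-type GSK had 5.09, 4.69 and 5.36 CPM, against 5.93 and 5.09 CPM in wild-type saline. The rd10 GSK libraries lay below all the others, as those of Lhx1 did, and Gja10 fell against rd10 saline (-0.61 ± 0.17, edgeR adjusted p = 0.0191), wild-type GSK (-0.58 ± 0.17, edgeR adjusted p = 0.0295) and wild-type saline (-0.70 ± 0.19, edgeR adjusted p = 0.0208). The lowest of them was the lens-bearing replicate 2. Without the lens-bearing libraries the changes were -0.40, -0.39 and -0.62, and all 3 calls were lost. That fit leaves a lone wild-type saline library and called fewer of all genes in each comparison. Without rd10 GSK replicate 2 alone, the change against rd10 saline was -0.40 (edgeR adjusted p = 0.0567), with 4373 of all genes called against 5621. The part of lens RNA in the Gja10 values was not tested. All 3 calls were lost under inner retina scaling as well. Gria4, a glutamate receptor subunit, fell between the rd10 groups (-0.54 ± 0.07, edgeR adjusted p = 0.000148), as did the adrenoceptor Adra2a (-0.38 ± 0.09, edgeR adjusted p = 0.00557) and the vesicular GABA transporter Slc32a1 (-0.20 ± 0.07, edgeR adjusted p = 0.0432), whose value was 0.0906 under inner retina scaling. The glutamate decarboxylases Gad1 and Gad2 and the anion exchanger Slc4a3 did not pass. Amacrine cells share Slc32a1, Gad1 and Gad2, and their part in these values was not tested.

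Of 9 further markers 7 fell and 1 rose between the rd10 groups, where 15.2% of all genes fell and 17.6% rose. Megf10, a receptor that spaces horizontal and starburst amacrine cells into mosaics, fell most (-0.92 ± 0.11, edgeR adjusted p = 0.000175). It had 43.8 ± 7.76 CPM in rd10 GSK, 83.2 ± 4.74 in rd10 saline, 49.3 ± 4.05 in wild-type GSK and 46.1 ± 1.90 in wild-type saline, and its rd10 GSK level did not pass against either wild-type group. Megf10 is made by glia too, and 7 of 9 Müller glia genes rose in rd10 saline against wild-type saline, where 21.5% of all genes rose. The part of glia in the Megf10 values was not tested. Its paralogue Megf11 fell with GSK in rd10 (-0.37 ± 0.07, edgeR adjusted p = 0.00143), and so did C1ql1, a secreted synaptic protein (-0.36 ± 0.06, edgeR adjusted p = 0.00118). The neurofilament genes Nefl, Nefm and Nefh, which ganglion cells share, fell by 0.29, 0.38 and 0.38 on the log2 scale. Ndrg1 rose (0.47 ± 0.10, edgeR adjusted p = 0.00333), and Septin4 had 0.06 ± 0.16 (edgeR adjusted p = 0.788).

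**Figure D4:**
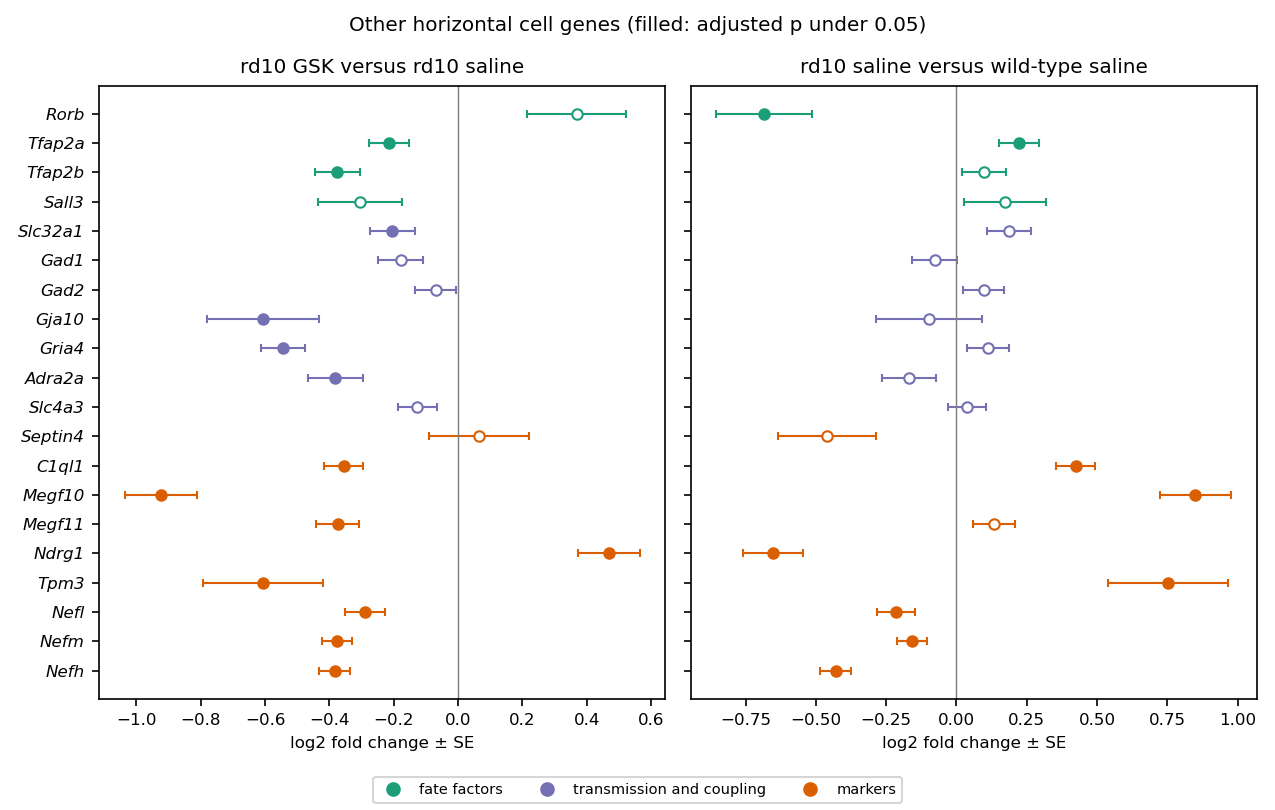
Log2 fold changes with SE of the 20 other horizontal cell genes that could be tested, between rd10 GSK and rd10 saline (left) and between rd10 saline and wild-type saline (right), coloured by list and filled where the adjusted p was under 0.05. On the left 13 filled points lie below 0 and 1, Ndrg1, above, and on the right 4 lie above and 5 below.

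Between rd10 saline and wild-type saline the counts were near those of all genes, of which 21.5% rose and 19.0% fell. Of the 20 genes, 4 rose, namely Tfap2a, C1ql1, Megf10 and Tpm3, and 5 fell, namely Rorb, Ndrg1 and the 3 neurofilament genes (median 0.07). Without rd10 saline replicate 3 the number that fell was 3, with 6153 of all genes called against 6919 in the main fit. Fewer rose and fewer fell without either wild-type saline replicate or without the lens-bearing libraries. Those fits leave a lone wild-type saline library, and they called fewer of all genes. Of the 7 transmission genes 0 were called by edgeR, DESeq2 or limma-voom, and 1 had an unadjusted p under 0.05. Between wild-type GSK and wild-type saline 2 fell and 0 rose, where 0.0877% of all genes fell and 0.444% rose. The 2 were Nefh (-0.61 ± 0.05, edgeR adjusted p = 0.000344) and Nefm (-0.41 ± 0.05, edgeR adjusted p = 0.00529), which ganglion cells share. Fewer of the list, and fewer of all genes, were called in the fits that leave a lone wild-type saline library. DESeq2 and limma-voom called 0 higher between the wild-type groups, and 1 gene was higher at an unadjusted p under 0.05. Against wild-type saline edgeR, DESeq2 and limma-voom each called 9 lower and 0 higher in rd10 GSK, where 10.3% of all genes fell, and 10 were lower and 0 higher at an unadjusted p under 0.05. Under inner retina scaling 4 were called lower and 4 higher, with the median of all genes at 0.272. That fit called 7070 of all genes, against 4180 in the main fit. Fewer fell in rd10 GSK without either wild-type saline replicate or without the lens-bearing libraries, where fewer of all genes were called as well. Against wild-type GSK edgeR and limma-voom called 8 lower and 0 higher, where 10.9% of all genes fell, while DESeq2 called 11 lower and 0 higher and 11 were lower and 0 higher at an unadjusted p under 0.05. Under inner retina scaling 2 were called lower and 2 higher, with the median of all genes at 0.157. That fit called 5051 of all genes, against 4484 in the main fit. The number that fell was 14 without rd10 GSK replicate 3, 3 without rd10 GSK replicate 2 and 5 without rd10 GSK replicate 1. Over all genes 4484 were called in the main fit, and 5694, 3142 and 3200 in those fits. Without a wild-type GSK replicate 2 or 3 of the list fell, with between 2515 and 2914 of all genes called. Fewer of the list, and fewer of all genes, were called without the lens-bearing libraries or either wild-type saline replicate.

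The genes most like each member across the 11 libraries were found by the root mean square difference of centred log2 levels, among 12208 genes with at least 5 CPM. For Lhx1 they were Lrtm1 (0.0893), Grm5 (0.0957) and Cabp5 (0.0959), the last a calcium-binding protein of bipolar cells. For Prox1 they were Fry (0.0474), Tenm2 (0.0659) and Ptprd (0.0671), and for Calb1 they were Glra2 (0.0749), Fam171b (0.0909) and Slc8a3 (0.0914). Onecut2 was nearest to Nav1 (0.136), Pard3b (0.155) and Bend4 (0.166), at greater distances. Onecut3 was nearest to L3mbtl3 (0.0986), Igdcc4 (0.105) and Xkr8 (0.106), and Onecut1 to Ncam2 (0.109), Fgf14 (0.113) and Alkbh8 (0.117).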

How the data were processed

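Whole right retinas from 11 mice were measured by stranded polyA RNA sequencing from 200 ng of total RNA with RNA integrity numbers above 7, per the labels. The deposited table holds raw read counts per Ensembl gene made by the authors. Per the submitters' processing notes, reads were aligned with HISAT2 2.1.0 and counted with HTSeq, and the builds NCBIM37 and mm9 are named. The sources used here name no HTSeq version, strand setting or annotation. Symbols came from a GENCODE M21 table, which matched 32919 of 37991 identifiers, all 28 horizontal cell genes among them (Septin4 as Sept4). Library totals ran from 19657030 to 28053367 counts.

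From these counts, edgeR 4.0.16 (R 4.3.3) was used to drop low genes (filterByExpr, count 10, total 15), leaving 17099, and to compute TMM factors. All 11 libraries entered a quasi-likelihood model of the 4 groups, and p-values were adjusted by Benjamini-Hochberg over all tested genes. A gene rose or fell where the adjusted p was under 0.05. SEs are the log2 fold change divided by the root of its F statistic. The scripts were tested on simulated data. Alternatives were DESeq2 1.42.0 (also its size factors alone), limma-voom 3.58.1, scaling on bipolar, amacrine and ganglion cell genes, no filter, the compared groups alone, a replicate block, a term for Xist above 10 CPM, leaving out libraries with over 500 CPM of lens genes, and leaving out each library. The members, the lists and the rule for named genes (the 6 members, the listed genes, and the 3 most alike genes of each member) were chosen with earlier results of these data known. Each library is labelled as 1 animal, and replicates of a group differed by more than sampling noise.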

Additional observations from a re-analysis of the deposited data

Results flagged for a closer look

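For 4 horizontal cell genes, of the 6 members and the 20 others tested, the effect of GSK differed between rd10 and wild-type retinas. This was by the edgeR interaction test, where 12.5% of all tested genes were called, 4.98% lower and 7.49% higher. All 4 differences were below 0, and the genes were listed with earlier results of these data known. In the same test 7 of 12 bipolar genes and 6 of 9 Müller glia genes were called lower. Lhx1 had a difference of -0.89 on the log2 scale (edgeR adjusted p = 0.00208), and it was called in 19 of 19 alternatives. Megf10 had -1.02 (edgeR adjusted p = 0.00378) and was also called in 19 of 19. Glia make Megf10 too, and their part in its values was not tested. Gria4 had -0.38 (edgeR adjusted p = 0.0292) and was called in 9 of 19, with adjusted p from 0.00480 to 0.222. C1ql1 had -0.31 (edgeR adjusted p = 0.0469) and was called in 5 of 19, with adjusted p from 0.0193 to 0.476. In each case the libraries of rd10 GSK were lower than those of rd10 saline without overlap. Libraries of these groups did not overlap for 42.7% of all genes.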

How the results depend on the processing

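Across 714 values of the 6 genes under 20 alternatives, 675 kept their side of the threshold, 22 lost a call and 17 gained one, and a called value never changed sign, while 24 uncalled values did. The number of the 6 genes called between rd10 saline and wild-type saline (2) was 1 with limma-voom. It was between 1 and 4 when each rd10 or wild-type GSK library was left out in turn. It was smaller in the fits that leave a lone wild-type saline library, which called fewer of all genes. Between rd10 GSK and rd10 saline (3) the number was 1 under inner retina scaling, where 8569 of all genes were called. It was between 2 and 4 with each library left out. For the interaction (1) it was 3 with the DESeq2 Wald test and between 1 and 3 with each library left out. Between rd10 GSK and wild-type saline (2) it was 1 with only the compared groups fitted, with 1573 of all genes called against 4180. It was 2 with each rd10 or wild-type GSK library left out. It was smaller without the lens-bearing libraries and without wild-type saline replicate 2, fits that leave a lone wild-type saline library. With a term for Xist the counts were 3 for rd10 GSK against wild-type GSK (2) and 3 for rd10 GSK against wild-type saline, with Onecut2 added both times. The count for rd10 GSK against wild-type GSK was 2 in each other alternative, and that for wild-type GSK against wild-type saline was 0 in all. Under inner retina scaling the sign changed for Tfap2a (0.0782), Slc32a1 (0.0906), Gad2 (0.22), Slc4a3 (0.17) and Nefl (0.00428) between rd10 GSK and rd10 saline. Tfap2a, Slc32a1 and Nefl lost their calls there, while Gad2 and Slc4a3, not called in the main fit, were called higher (edgeR adjusted p = 0.0265 and 0.0381). Between rd10 GSK and wild-type saline the sign changed for Slc32a1 (0.24) and Megf11 (0.0236). This scaling is set on genes of neighbouring neurons, moved the median of all genes by up to 0.305, and centres those neurons near 0 by construction. Where a lone wild-type saline library remained, it was assumed to vary like the other groups. Same-numbered libraries of different groups had correlated deviations from their group means in 5 of 15 pairs (r over 0.1, from -0.198 to 0.426). The highest r joined the lens-bearing wild-type saline replicate 2 and rd10 GSK replicate 2. In differently numbered pairs r ran from -0.426 to 0.206. Deviations within a group cancel out, so these values cannot settle whether the numbers pair the samples. With the replicate block the counts of genes called stayed at 2, 3, 0, 1, 2 and 2. Between rd10 saline and wild-type saline the block called Calb1 (-0.21, adjusted p = 0.0489) and not Prox1 (0.27, adjusted p = 0.0670). Calls over all genes moved with the library left out too. Between rd10 saline and wild-type saline they numbered 6919 in the main fit, 6029 without rd10 saline replicate 1 and 7506 without rd10 GSK replicate 1. Between rd10 GSK and rd10 saline the main fit called 5621, against 4359 without rd10 saline replicate 1 and 6346 without rd10 GSK replicate 1. Depth limits Onecut1 most, with at most 73 counts in a library.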
